A study of Homo sapiens with 12 samples.

Results

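The snoRNA host genes are transcripts whose introns carry small nucleolar RNAs. The 9 described here are GAS5, SNHG1, SNHG3, SNHG5, SNHG6, SNHG7, SNHG8, SNHG12 and SNHG16, taken by gene symbol from the count table, and they were 9 of its 26364 genes. All 9 passed the filter on low counts, as did 13852 genes in all. The study followed HepG2, a human hepatocellular carcinoma line, at 0, 5, 10, 30 and 240 min after insulin, with 2 RNA libraries per time, and mapped the insulin receptor (IR) on chromatin in 1 ChIP library with 1 input. The cells of the ChIP library and of its input were labelled as kept with insulin, washed and then stimulated with 3 nM insulin, with no time given. The times come from the sample titles. The treatment label of every RNA library, the 0 min pair included, gives 16 h in EMEM followed by 3 nM insulin for 5 min, so the labels and the titles differ on this point. The study's methods call the RNA samples biologically independent and the experiment a single one, while the labels do not say whether paired libraries came from separate cultures. The p-values measure the spread between these libraries. Libraries held 18347109 to 45005769 reads on genes. The liver markers ALB, APOA1, APOA2, APOB, TTR, AFP, SERPINA1 and FGB were between 137 and 40912 CPM (read counts scaled to library size) in every library, PTPRC was at 0, and PECAM1 and COL1A1 reached 3.00 and 1.94 CPM at most.

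The small nucleolar RNAs (snoRNAs) of most human hosts are trimmed from introns after splicing. Box C/D snoRNAs guide 2′-O-methylation and box H/ACA snoRNAs guide pseudouridylation, mostly of ribosomal RNA. The spliced hosts carry short reading frames or none that is conserved. Many of them begin with a run of pyrimidines, like the mRNAs of ribosomal proteins, which are controlled by growth signals through mTOR. When translated, such hosts can be degraded by nonsense-mediated decay. Ribosomal protein genes are the set beside which the hosts are described here.

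Host genes are recognised by what lies in their introns, and the box C/D snoRNAs below are those whose rows in the count table are described later. They were read from GRCh37, the build of the files, at the positions of the transcript tables, on the strand of the host. Capitals mark box C searched as TGATGA in the first 25 bases and box D searched as CTGA in the last 20 bases. Both were found in 14 of the 24 box C/D snoRNAs of the 9 hosts that were read (58.3%), against 69.1% of 249 box C/D snoRNA rows placed on the genome. A missing match says only that these exact letters were not in that window. The first 4 lie in GAS5 at chr1:173833507-173833583, chr1:173834488-173834568, chr1:173835106-173835166 and chr1:173833313-173833355, and the others in SNHG1 at chr11:62621376-62621440, SNHG5 at chr6:86387307-86387377, SNHG12 at chr1:28905255-28905334 and SNHG16 at chr17:74554874-74554951.
SNORD47: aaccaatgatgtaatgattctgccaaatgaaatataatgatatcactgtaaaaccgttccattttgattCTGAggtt
SNORD79: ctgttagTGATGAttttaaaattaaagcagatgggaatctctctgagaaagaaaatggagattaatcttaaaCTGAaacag
SNORD44: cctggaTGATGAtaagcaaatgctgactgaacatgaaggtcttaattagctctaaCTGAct
SNORD81: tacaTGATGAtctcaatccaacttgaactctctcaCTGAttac
SNORD29: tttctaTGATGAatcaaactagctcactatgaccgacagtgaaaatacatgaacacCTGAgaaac
SNORD50B: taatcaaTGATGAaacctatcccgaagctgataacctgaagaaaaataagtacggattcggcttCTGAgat
SNORD99: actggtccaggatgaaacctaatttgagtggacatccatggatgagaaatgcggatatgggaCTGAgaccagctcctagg
SNORD1C: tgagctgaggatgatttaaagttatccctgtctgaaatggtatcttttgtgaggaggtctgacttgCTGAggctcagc

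The hosts differed widely in level. Levels between genes were compared per length, in TPM, which divides by transcript length. SNHG5 was the highest, with 312 to 352 TPM over the 10 libraries and a median of 332. SNHG16 followed at 191 to 217 TPM and GAS5 at 152 to 169 TPM. These 3 did not overlap with each other. SNHG6 held 120 to 160 TPM, SNHG8 held 89.9 to 120 TPM and SNHG1 held 93.0 to 134 TPM, each overlapping its neighbour in the order, and SNHG6 also overlapped GAS5. SNHG3 (43.3 to 49.5 TPM) and SNHG7 (37.2 to 45.2 TPM) overlapped as well, below all of these. SNHG12 was the lowest, at 12.5 to 28.2 TPM.

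**Figure D1:**
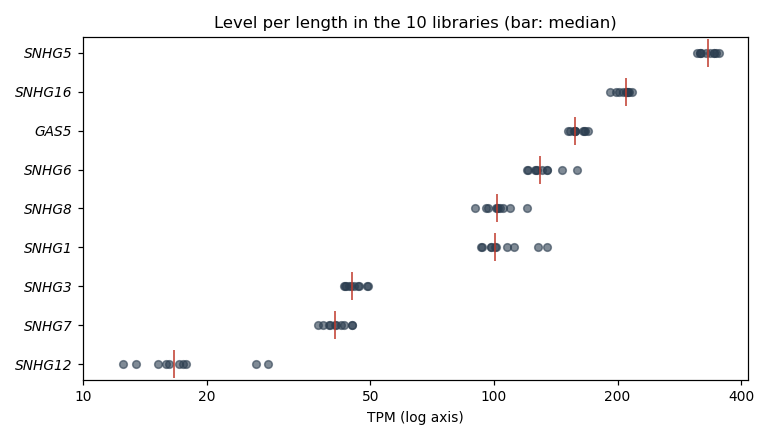
TPM of each host gene (log axis) in each of the 10 libraries, with the median of the 10 as a bar. SNHG5 lies highest at a median of 332 TPM and SNHG12 lowest at 16.7 TPM.

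At 240 min, 3 of the 9 hosts rose and 1 fell, while none was called at 5, 10 or 30 min. A gene is called here at an adjusted p under 0.05 in edgeR's quasi-likelihood test against 0 min, with Benjamini-Hochberg adjustment over all 13852 genes. The count of 4 of 9 at 240 min stands beside 41.0% of all genes tested, 20.6% higher and 20.4% lower, so the share of hosts called was near that of genes in general. In such bulk RNA, a change in the share of cells that express a gene and a change per cell cannot be told apart. Of all genes, 2847 were higher and 2829 lower, against 331 and 728 when libraries were scaled to ERCC spike-ins and 2638 and 1579 by limma on log2(TPM + 1). At 5 min 0 genes were called by edgeR (0%), with 1976 at an unadjusted p under 0.05. At 10 min the share was 0.137% and at 30 min 0.332%. Of the hosts, 0, 1 and 0 had an unadjusted p under 0.05 at 5, 10 and 30 min, and DESeq2 also called 0 at each of these times. A test over the 5 times together called 3 hosts, beside 38.3% of all genes.

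**Figure D2:**
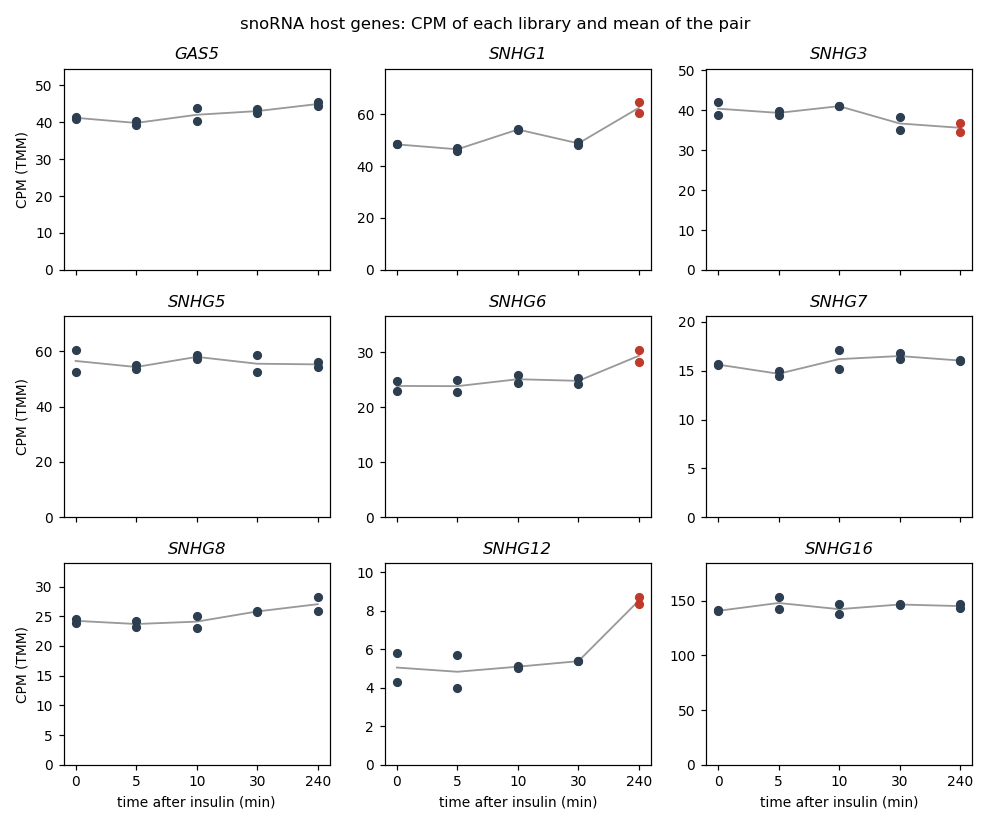
TMM-scaled CPM of each host gene in both libraries of each time, with the mean of the pair as a line; red points mark the 4 genes called at 240 min. SNHG12 goes from 4.31 and 5.80 CPM at 0 min to 8.35 and 8.73 CPM at 240 min, and no host is called at an earlier time.

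SNHG12, which lies at chr1:28905050-28908366 on the minus strand and hosts 4 listed snoRNAs, had the largest change among the 9. It measured 5.80 and 4.31 CPM at 0 min, 5.70 and 3.97 CPM at 5 min, 5.05 and 5.15 CPM at 10 min, 5.38 and 5.39 CPM at 30 min, and 8.35 and 8.73 CPM at 240 min. Both 240 min libraries were above every earlier one. The log2 fold change at 240 min was 0.80 ± 0.15 (SE, n = 2 per time), a 1.75-fold rise (edgeR adjusted p = 0.000324). With each library left out in turn this log2 fold change ran from 0.55 to 0.98 and the call held.

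SNHG1, at chr11:62619460-62623360 on the minus strand, carries 8 box C/D snoRNAs. It measured 48.3 and 48.4 CPM at 0 min, 45.8 and 47.1 CPM at 5 min, 54.3 and 53.8 CPM at 10 min, 49.3 and 48.2 CPM at 30 min, and 64.6 and 60.2 CPM at 240 min. The 240 min libraries were the 2 highest, and the 10 min pair also stood above the 0 min pair. SNHG1 rose at 240 min by a log2 fold change of 0.37 ± 0.05 (SE, edgeR adjusted p = 2.22e-05). The call was lost with ERCC scaling (edgeR adjusted p = 0.457). At 10 min the log2 fold change was 0.16 ± 0.05 (SE) with an adjusted p of 0.715 in edgeR.

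SNHG6, at chr8:67834165-67837777 on the minus strand, hosts SNORD87. Its libraries held 24.8 and 23.0 CPM at 0 min, 22.8 and 24.9 CPM at 5 min, 25.8 and 24.4 CPM at 10 min, 24.3 and 25.3 CPM at 30 min, and 30.5 and 28.2 CPM at 240 min. The 240 min pair was above all others. It rose at 240 min by a log2 fold change of 0.31 ± 0.07 (SE, edgeR adjusted p = 0.00261). The value was 0.25 without the second 0 min library and 0.25 without the first 240 min library, and the call was lost in each case. It was also lost with ERCC scaling (edgeR adjusted p = 0.623).

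SNHG3 was the 1 host that fell. It measured 42.0 and 38.7 CPM at 0 min, 39.8 and 38.8 CPM at 5 min, 41.0 and 41.0 CPM at 10 min, 38.3 and 35.1 CPM at 30 min, and 34.5 and 36.7 CPM at 240 min. The 240 min libraries lay below both 0 min libraries. It fell by 0.18 ± 0.07 on the log2 scale (SE, edgeR adjusted p = 0.0365), and the call was lost with DESeq2 (adjusted p = 0.093), without a filter on low counts (adjusted p = 0.0522), with upper-quartile scaling (adjusted p = 0.0757) and in TPM (limma adjusted p = 0.26). With ERCC scaling the call was lost as well (edgeR adjusted p = 0.372). It was also lost without the first 0 min library (edgeR adjusted p = 0.22), the first 240 min library (0.25) or the first 10 min library (0.0506). SNHG3 lies at chr1:28832455-28837404 on the plus strand and overlaps RCC1, the exchange factor of Ran, on the same strand, so its reads are uncertain. RCC1 measured 73.4 CPM at 0 min and 76.6 CPM at 240 min (mean, n = 2), with an edgeR adjusted p of 0.35.

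The other 5 hosts were not called. GAS5, a growth-arrest transcript with 10 listed snoRNAs at chr1:173833039-173837125, held 41.4 and 40.9 CPM at 0 min and 44.4 and 45.4 CPM at 240 min, with a log2 fold change of 0.13 ± 0.06 (SE, edgeR adjusted p = 0.102). SNHG8, the host of SNORA24 at chr4:119199917-119200978, held 24.6 and 23.9 CPM at 0 min and 28.3 and 25.8 CPM at 240 min, with a log2 fold change of 0.17 ± 0.07 (SE, edgeR adjusted p = 0.0781). Between 5 and 30 min, GAS5 held 39.1 to 43.8 CPM and SNHG8 23.1 to 25.9 CPM. The pairs at 0 and 240 min did not overlap for either gene, and with upper-quartile scaling both were called higher (adjusted p = 0.0486 and 0.0413).

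SNHG16, SNHG7 and SNHG5 had log2 fold changes at 240 min of 0.04, 0.04 and -0.02. SNHG16, at chr17:74553846-74561430, held 141 and 140 CPM at 0 min and 147 and 143 CPM at 240 min. SNHG7, at chr9:139619046-139622636, held 15.5 and 15.7 CPM at 0 min and 16.0 and 16.1 CPM at 240 min. SNHG5, at chr6:86386725-86388451, held 60.6 and 52.4 CPM at 0 min and 54.3 and 56.2 CPM at 240 min, the only host whose 240 min libraries fell within the 0 min range. Between 5 and 30 min, SNHG16 held 137 to 154 CPM, SNHG7 14.4 to 17.2 CPM and SNHG5 52.3 to 58.7 CPM. The pairs at 0 and 240 min did not overlap for 8 of the 9 hosts, as for 69.7% of all genes tested.

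Against 30 min, 3 of the 9 hosts were higher at 240 min and 0 lower, beside 38.2% of all genes called, 19.8% higher and 18.4% lower. They were SNHG12 (log2 fold change 0.66 ± 0.16, adjusted p = 0.00233), SNHG1 (0.36 ± 0.06, adjusted p = 4.1e-05) and SNHG6 (0.25 ± 0.08, adjusted p = 0.0143), all with SE and edgeR's test. At an unadjusted p under 0.05 the count was also 3. The comparison with 0 min and this one share the 240 min libraries.

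Ribosomal protein genes, the growth-controlled set, more often fell than rose at 240 min. Of 79 listed, 77 were tested, and at 240 min 33 fell, 3 rose and 41 were not called, with a median log2 fold change of -0.12 against 0.13 for the 9 hosts and 0.00 for all genes. RPS29 fell from 102 to 71.9 CPM (log2 fold change -0.50 ± 0.08, SE, edgeR adjusted p = 7.45e-05) and RPL39 from 22.2 to 16.0 CPM (-0.47 ± 0.13, adjusted p = 0.00827). The 3 that rose were RPL7, RPS28 and RPS3A, and they included RPL7 and RPS28, with mean levels of 1.11 and 1.99 CPM at 240 min. These genes have many processed copies, and reads shared with them could be split or lost in counting. Among the 24 tested ribosomal protein genes that host snoRNAs, 12 fell and 0 rose (14 at an unadjusted p under 0.05), with a median of -0.16. A shift of the ribosomal protein genes was not limited to 240 min. At 5 min 66 of the 77 were negative, with a median of -0.09 and 0 called. At an unadjusted p under 0.05 there were 32, beside 1976 of all 13852 genes. The medians at 10 and 30 min were -0.01 and -0.04. The summed hosts held 1.87 ± 0.022 reads per 100 ribosomal protein reads at 0 min and 2.15 ± 0.039 at 240 min (SD, n = 2). Means at 5, 10 and 30 min were 1.97, 1.93 and 1.95. The difference between the sets was not tested.

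**Figure D3:**
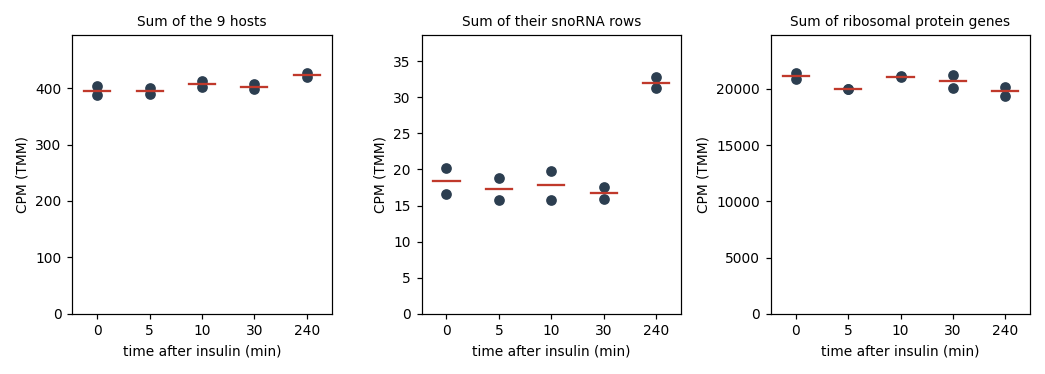
Summed CPM of the 9 hosts, of the snoRNA rows in their introns and of the ribosomal protein genes, per library (points) with the mean of each pair (red line), against time. The snoRNA rows go from 18.4 CPM at 0 min to 32.0 CPM at 240 min, while the ribosomal protein genes go from 21198 to 19778 CPM, with 20001 CPM at 5 min.

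The other hosts did not share 1 direction. Of 9 tested noncoding hosts outside the 9, SNHG17 (log2 fold change 0.74) and SNHG4 (0.50) rose, DANCR (-0.20) fell and 6 were not called, with a median of -0.08. Of 14 coding hosts outside the ribosome, 3 rose and 4 fell, with a median of -0.05. NOP56, a core protein of box C/D particles, rose from 261 to 398 CPM (log2 fold change 0.61). NCL, which encodes nucleolin, rose by 0.47 on the log2 scale and GNL3, which encodes nucleostemin, by 0.31, while the translation factors EIF4A2 (-0.30), EEF2 (-0.22) and EEF1B2 (-0.21) fell.

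Lists of genes that act on the hosts and their products were called at 240 min in shares that are read beside the 41.0% of all genes. Of 9 genes listed for snoRNP proteins, 5 rose and 0 fell, with a median log2 fold change of 0.48. NOP58 and NOP56, which bind box C/D snoRNAs, rose by 0.68 and 0.61, and NOLC1, a chaperone of snoRNPs, by 0.56. FBL, which encodes fibrillarin, was not called (log2 fold change 0.06, edgeR adjusted p = 0.399). Of 9 assembly factors, NUFIP1 (0.68), NAF1 (0.37) and RUVBL1 (0.16) rose and PIH1D1 (-0.20) fell. Among 10 factors of nonsense-mediated decay, 8 were not called and UPF2 (-0.19) fell. Of 10 genes for control of pyrimidine-tract transcripts, LARP4 (0.35) and LARP1 (0.15), which encode RNA-binding proteins, rose, and MTOR (-0.27), EIF4EBP2 (-0.24) and RPTOR (-0.17) fell. MYC, a driver of ribosome synthesis, had a log2 fold change of 0.09 (edgeR adjusted p = 0.172).

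**Figure D4:**
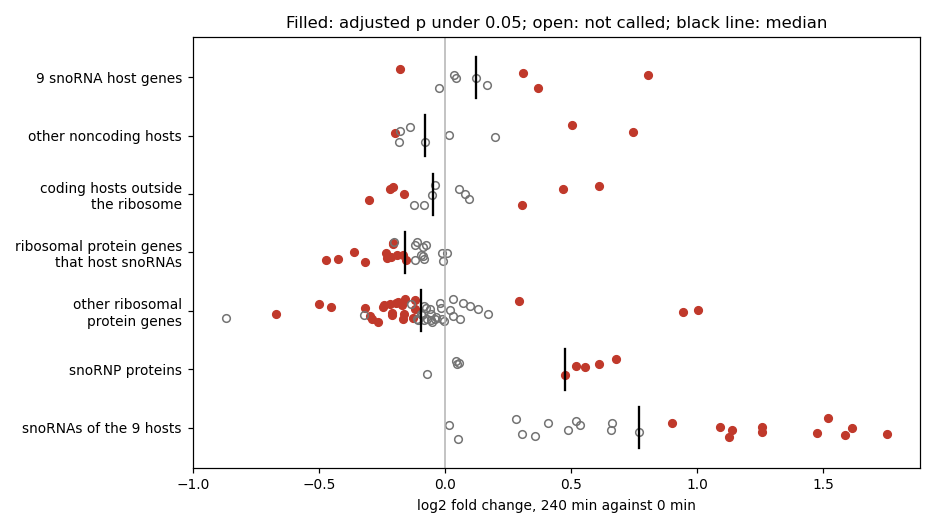
log2 fold change at 240 min against 0 min of each tested gene, by gene group; filled points passed an adjusted p under 0.05 and the black line is the group's median. The 9 hosts have a median of 0.13, ribosomal protein genes that host snoRNAs of -0.16, snoRNP proteins of 0.48 and the snoRNA rows of the 9 hosts of 0.77.

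The count table also has rows for the snoRNAs in the hosts' introns, and part of these rose at 240 min. Of 33 listed, 32 had a row and 23 were tested, of which 11 rose, 0 fell and 12 were not called, with a median log2 fold change of 0.77 and all 23 values positive, beside 20.6% of all genes higher. The filter on low counts can pass a row through the libraries of a single time. SNORD99, SNORA44 and SNORD1C would not have been tested without their 240 min pair. The same holds for SNORD77, which was not called. The calls of SNORD99, SNORA44 and SNORD1C, and the direction of all 23, therefore partly follow from the filter. Called rows came from 7 of the 9 hosts, but those of SNHG12 and SNHG16 were only SNORD99, SNORA44 and SNORD1C. Both snoRNA rows of SNHG7 were at 0 reads. At 30 min 0 of the 23 were called (1 at an unadjusted p under 0.05), with a median of 0.00. This list was examined after its values had been seen, and all 80 snoRNA rows tested had 22 higher and 2 lower with a median of 0.45. By position, rows inside ribosomal protein genes had 3 higher and 1 lower of 18, rows inside other genes 4 higher and 1 lower of 26, and rows inside no listed gene 4 higher and 0 lower of 13, with medians of 0.23, 0.25 and 0.48.

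GAS5 shows host and snoRNA rows side by side. SNORD47, the first sequence printed above, was counted in 56 and 67 reads at 0 min, 32 and 46 reads at 5 min, 36 and 46 reads at 10 min, 46 and 30 reads at 30 min, and 109 and 92 reads at 240 min. Both 240 min libraries were the highest, and its log2 fold change was 1.26 ± 0.24 (SE, edgeR adjusted p = 0.000358), against 0.13 for GAS5. SNORD79 (1.48), SNORD44 (1.26) and SNORD81 (1.09) also rose, while SNORD76 (0.66), SNORD80 (0.54) and SNORD77 (0.36) were not called. SNORD77 passed the filter on low counts only with a 240 min library. Summed over the 10 rows, there were 16.6 ± 3.42 snoRNA reads per 100 GAS5 reads at 0 min, 13.1 ± 0.20 at 30 min and 30.3 ± 0.70 at 240 min (SD, n = 2).

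In SNHG1, whose own log2 fold change was 0.37, SNORD29 rose by 0.90 and the other 7 rows were not called, with SNORD22 at 0.02 and SNORD31 at 0.05. SNORD87 in SNHG6 went from 0.60 and 0.31 CPM at 0 min (13 and 14 reads) to 1.44 and 1.37 CPM at 240 min (36 and 26 reads). Its log2 fold change was 1.75 ± 0.36 (SE, edgeR adjusted p = 0.000586). SNORD50B in SNHG5 rose by 1.59, though SNHG5 itself stood at -0.02. SNORA24 in SNHG8 (1.14) rose too. SNORD1C in SNHG16 (1.52), and SNORD99 (1.61) and SNORA44 (1.13) in SNHG12, were also called higher, but were tested only through their 240 min pair. The differences between hosts and their snoRNA rows were not tested, and whether these reads are mature snoRNA or unspliced host cannot be told apart from the counts. The rows are thin, with 361 to 782 reads in all per library, and DESeq2 called 5 of the 23. Without the second 0 min library, the most deeply sequenced, 6 were called.

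**Figure D5:**
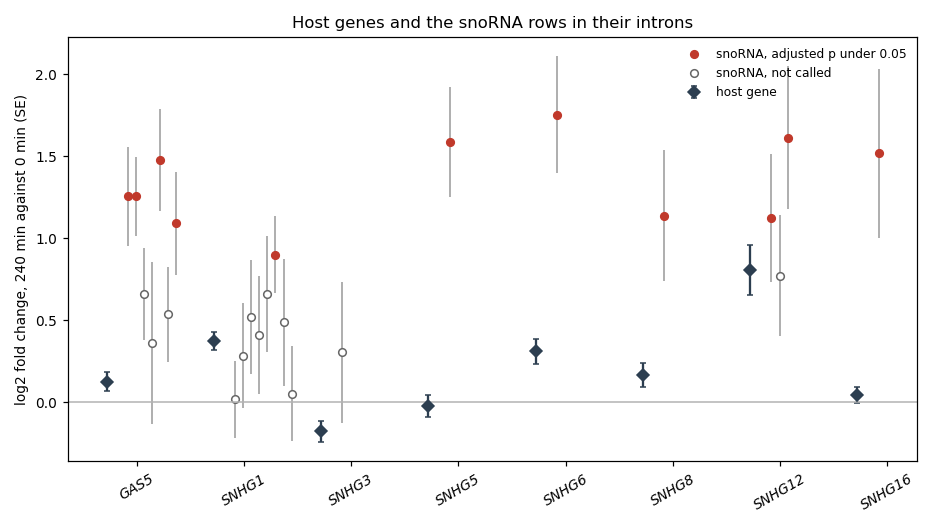
log2 fold change at 240 min against 0 min of each host gene (diamonds) and of each tested snoRNA row in its introns (circles, filled where the adjusted p is under 0.05), with SE as bars. GAS5 lies at 0.13 and its 7 tested snoRNA rows between 0.36 and 1.48, while SNORD22 and SNORD31 in SNHG1 lie near 0.

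At or near their start sites, 5 of 8 hosts held a pyrimidine tract, against 83.3% of 78 promoters of 63 ribosomal protein genes and 33.5% of all 35116 promoters in the RefSeq table (GRCh38.p14). SNHG6 has no entry. The tract was defined as C followed by at least 4 C or T on the gene's strand, starting within 10 bases of the annotated start, on either side. With the start as position 1, it began at 1 in SNHG5, -1 in SNHG12, 6 in SNHG16, -5 in SNHG8 and -10 in SNHG7. In SNHG7 it ended before the start, outside the annotated transcript. The windows below run from 30 bases before that start to 40 from it, with the tract in capitals, for hosts that rose (SNHG12, with the longest tract, and SNHG1, with none) and hosts not called (SNHG5 and GAS5). A match describes letters and is no evidence of control. A missing match says only that no such tract began within 10 bases of the annotated start. The GAS5 window holds an unmarked run of pyrimidines further from that start.
SNHG12: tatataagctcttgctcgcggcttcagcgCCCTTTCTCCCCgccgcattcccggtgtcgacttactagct
SNHG1: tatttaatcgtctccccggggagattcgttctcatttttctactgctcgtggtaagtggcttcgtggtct
SNHG5: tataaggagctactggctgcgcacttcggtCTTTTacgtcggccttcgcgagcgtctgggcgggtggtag
GAS5: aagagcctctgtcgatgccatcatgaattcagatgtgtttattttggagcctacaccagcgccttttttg

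IR peaks lay within 5 kb of 3 of the 9 hosts (33.3%), against 15.6% of 77 ribosomal protein genes and 15.7% of all genes tested, in 1 ChIP library with no replicate and no test. The peak at SNHG16 (chr17:74553612-74553919, score 189) and that at SNHG12 (chr1:28908266-28908651, score 103) contained the annotated start. The peak at GAS5 (chr1:173837373-173837849, score 50) began 248 bases upstream of it and was listed by HOMER under ZBTB37. Scores over the 1971 peaks ran from 13 to 14106 with a median of 79. SNHG12 was the only one of these 3 hosts called at 240 min.

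Among the hosts themselves, SNHG1 and SNHG6 moved most alike over the 10 libraries (Pearson r = 0.89) and SNHG3 and SNHG8 least (r = -0.76), both described over libraries that share their times. The 5 genes outside the 9 whose log2 CPM was closest to the mean standardised profile of the hosts were CCDC115 (r = 0.96), IL15RA (r = 0.96), PSMB2 (r = 0.94), UNG (r = 0.94) and LRRC37A (r = 0.93). IL15RA and LRRC37A had mean levels of 0.50 CPM at 240 min, and both had fewer reads than any host.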

How the data were processed

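Per the study's methods and the submitters' processing notes, the authors trimmed reads with Trim Galore 0.6.4, aligned them to hg19 with STAR 2.6.1d and deposited whole-number counts per gene from featureCounts 1.6.4, counted by strand, and TPM from StringTie. IR peaks, with the score deposited by the authors, came from BWA 0.7.17-r1188, MACS2 2.2.7.1 and HOMER. How RNA was selected is not given in the sources used here. The 92 ERCC rows were kept out of library sizes. Counts were fitted over the 10 libraries with edgeR 4.0.16 (TMM, filterByExpr, quasi-likelihood test), and the script was tested on simulated data. Alternatives used DESeq2 1.42.0 and limma 3.58.1. The 9 genes and all lists were chosen with earlier results of these data known. Named genes were all 9 hosts, up to 3 called genes per list and direction with the largest change at 240 min, MYC, LARP1 and the 5 most alike genes. Other named genes, among them RCC1 and further snoRNA rows, were chosen after their values were seen. Some genes that the rule would name are not reported here.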

Additional observations from a re-analysis of the deposited data

Results flagged for a closer look

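The change at 240 min differed from the change at 30 min, by a test of the difference itself (edgeR's quasi-likelihood test, adjusted over all genes), for 3 of the 9 hosts. This stands beside 38.2% of all genes called, 19.8% higher and 18.4% lower. The log2 difference was 0.66 for SNHG12, 0.36 for SNHG1 and 0.25 for SNHG6, all higher at 240 min.

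The same test picked out 11 of the 23 tested snoRNA rows, all higher at 240 min, beside 19.8% of all genes higher. In GAS5 the log2 difference was 1.54 for SNORD47, 1.46 for SNORD79, 1.24 for SNORD81, 1.23 for SNORD80 and 1.19 for SNORD44. In SNHG1 it was 1.66 for SNORD30 and 1.17 for SNORD29. It was 1.46 for SNORD50B in SNHG5, 1.82 for SNORD87 in SNHG6, 1.34 for SNORA24 in SNHG8 and 1.49 for SNORA61 in SNHG12. SNORD80, SNORD30 and SNORA61 were not called against 0 min.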

How the results depend on the processing

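ERCC scaling left 1 host called at 240 min (SNHG12, adjusted p = 0.0486), 1 against 30 min and 1 over all times, 5 ribosomal protein genes and 7 snoRNA rows. It moved the median of all genes by -0.12, of the hosts to 0.00662 and of ribosomal protein genes to -0.23. SNHG1, SNHG6 and SNHG3 were not called under this scaling (edgeR adjusted p = 0.457, 0.623 and 0.372). Relative to that shift SNHG1 was at 0.37, SNHG6 at 0.31 and SNHG3 at -0.18, and the uncalled SNHG7 and SNHG16, negative under this scaling, at 0.04 and 0.05. Taking the shift out largely undoes the scaling, so these relative values are no separate check of the main fit. Limma on log2(TPM + 1) or log2(TPM + 0.1) called 1 host over all times and 7 ribosomal protein genes (13 at a mean TPM of at least 1), with a ribosomal protein median of -0.0588 in each. DESeq2 called 5 snoRNA rows, as did a minimum of 10 counts in every library, which left 9 to test. These snoRNA alternatives were chosen after seeing the data. Leaving out 1 library at a time gave 2 to 4 hosts (2 without the first 240 min library), 22 to 37 ribosomal protein genes (22 without the first 0 min library) with medians of -0.158 to -0.101, and 6 to 11 snoRNA rows (6 without the second 0 min library). Requiring 6 pyrimidines after C left 2 of 8 host promoters with a tract (25%, against 73.1% of ribosomal protein and 13.5% of all promoters), and a start within 20 bases gave 7 of 8 (87.5%, against 92.3% and 51.0%). With the replicate number as a block, 4 hosts and 11 snoRNA rows were called. Same-numbered libraries deviated together with correlations of -0.12 to 0.13, so the numbers were not taken as pairs. The causes were not tested.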
